A study of Mus musculus with 6 samples.

Results

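The genes described here are 50 that a cell uses to copy its DNA in S phase: the factors that load and start the replicative helicase, the polymerases, the sliding clamp and its loader, the enzymes that make deoxynucleotides, and the proteins that steady the fork, rebuild chromatin and open S phase. They are a list of gene names, and all 50 were present in a table of 15469 genes. RNA was sequenced from macrophages washed out of the peritoneum of mice labelled CAIA, sorted for RELM-α on the cell surface and then kept in a dish. The 3 KO libraries came from cells described as lacking PU.1, the macrophage transcription factor that Spi1 encodes, and the 3 WT libraries from control cells; the CAIA treatment, the sort and the plating were common to both groups. How PU.1 was deleted, the allele and its driver, the strain, age and sex of the mice, the time in culture and whether replicates came from separate animals are not stated in what was at hand, so p-values measure the spread between these libraries, which may be technical. In a bulk library, more cells in S phase and more RNA per cell cannot be told apart.

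In G1, the origin recognition complex, Cdc6 and Cdt1 load the ring-shaped MCM helicase onto DNA at origins. At the start of S phase, Cdc45 and the GINS complex join MCM to make the active helicase, primase lays down primers, and polymerases α, δ and ε extend them with the clamp PCNA holding δ and ε on the template. Transcription of most of these genes is driven by E2F factors when cyclin and kinase activity releases them from the retinoblastoma family, and resting cells keep many of them low. Peritoneal macrophages are mostly out of the cell cycle at rest and can divide in place, for example in response to CSF1.

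The libraries held 17280855 to 18632623 counts each. The deletion did not show in the level of the targeted gene: Spi1 had 277, 285.5 and 319.7 CPM (scaled by TMM factors to a common depth) in the KO libraries and 323, 340.2 and 284 CPM in the WT libraries, a log2 difference of -0.1 (SE 0.11, adjusted p = 0.561). Values of a group are always in the order of replicates 1, 2 and 3. A gene-level count also takes reads from any exon that a deletion leaves, and the groups are named below as the libraries are labelled. KO replicate 1 stood apart: across all genes tested, its log2 CPM correlated (Pearson) with KO replicates 2 and 3 at 0.902 and 0.922 but with the WT libraries at 0.955 to 0.959, while KO replicates 2 and 3 correlated at 0.99 and the WT libraries at 0.988 to 0.992. Counts of 4 Y-linked genes summed to 8, 1 and 3 in the KO libraries and 2158, 2164 and 2854 in the WT libraries, so sex and label cannot be told apart. All 8 macrophage markers, Adgre1 and Csf1r among them, passed the filter on low counts, and their summed level was 19920, 44710 and 43070 CPM in the KO libraries and 39820, 37140 and 35450 in the WT libraries. Of the markers of other cells, 5 of 6 fibroblast markers were listed (Lum was not), with summed levels of 2.147, 21.2 and 33.4 CPM in the KO and 8.14, 5.603 and 5.17 in the WT libraries. Neutrophil markers (7 of 8 listed) summed to 6.385, 2.721 and 2.137 CPM in the KO and 10.4, 10.9 and 8.89 in the WT libraries. The first KO library was low for B-cell markers (7 of 7 listed; 9.91, 33.5 and 35.3 CPM in the KO and 43.03, 56.03 and 59.04 in the WT libraries), for T and NK markers (7 of 9; 3.25, 19.9 and 28.9, and 22.5, 27.1 and 29.1) and for eosinophil markers (3 of 4; 1.16, 6.88 and 6.99, and 6.28, 7.57 and 8.53). It was the highest library for dendritic cell markers (6 of 6 listed), at 4.24, 0.205 and 0.313 CPM in the KO and 0.872, 1.56 and 1.14 in the WT libraries. It was also the highest for endothelial markers (5 of 5), at 127, 74.4 and 75.2 CPM in the KO and 78.5, 107.1 and 105.1 in the WT libraries. Results below are given with and without KO replicate 1, but why it stood apart was not tested. The part of sex and of the markers of other cells in the results below was not tested either.

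Most replication genes stood at higher levels in KO replicates 2 and 3 than in any WT library, and fewer did in KO replicate 1. KO replicates 2 and 3 were both above every WT library for 45 of the 50 genes, against 33.9% of all 11424 genes tested, and both reached at least 2 times the WT mean for 29, against 5.44%. KO replicate 1 was above every WT library for 30 genes, within the WT range for 13 and below it for 7, where the shares of all genes tested were 35.8%, 33.6% and 30.6%. The median gene stood at 1.17 times the WT mean in KO replicate 1, 2.84 times in KO replicate 2 and 2.38 times in KO replicate 3, where the median of all genes tested stood at 1.02, 1.0 and 0.987 times. KO replicate 2 held the highest of the 6 values for 39 genes, KO replicate 3 for 5 and KO replicate 1 for 3, against 25%, 13.5% and 20.4% of all genes tested.

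With all 6 libraries, 1 of the 50 genes, Dnmt1, rose at an adjusted p under 0.05 and 0 fell (edgeR's quasi-likelihood test, Benjamini-Hochberg over all genes tested), where 2.26% of all genes tested rose. All 50 entered the test, although Orc1 reached 10 counts in KO libraries only. An unadjusted p under 0.05 was reached by 35 genes, all higher, against 15.0% of all genes tested, and the log2 difference was above 0 for 47, with a median of 1.09 beside -0.006 for all genes tested. Every KO library lay above every WT library for 28 genes (18.4% of all genes tested), and every KO library lay below every WT library for 1, Pcna (12.6%). The count turned on 1 library: without KO replicate 1, 45 genes rose and 0 fell, with a median log2 difference of 1.39 beside 0.017 for all genes. In that fit 23.6% of all genes tested rose and 26.0% fell, so a large share of the transcriptome passed. The 5 genes that did not pass there were Pola1, Pcna, Rfc2, Tipin and Slbp, with log2 differences of -0.17 to 0.096 and adjusted p of 0.136 to 0.770. With a correction for GC content and length in the same fit, Pola1, Tipin and Slbp rose as well and Rfc2 fell. KO replicate 1 was seen to stand apart in these same data, so p-values without it, here and below, are descriptive. With any other single library left out, 0 of the 50 genes passed.

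DESeq2 on all 6 libraries called 28 of the 50 genes higher and 0 lower, where it called 7.12% of all genes it tested higher. The authors' deposited table, whose q-values are also labelled DESeq2, listed 27 higher and 0 lower at q under 0.05, where it listed 5.28% of its genes higher. The same data thus gave 1 higher gene by edgeR and 27 or 28 by DESeq2, which are not separate lines of evidence.

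**Figure D1:**
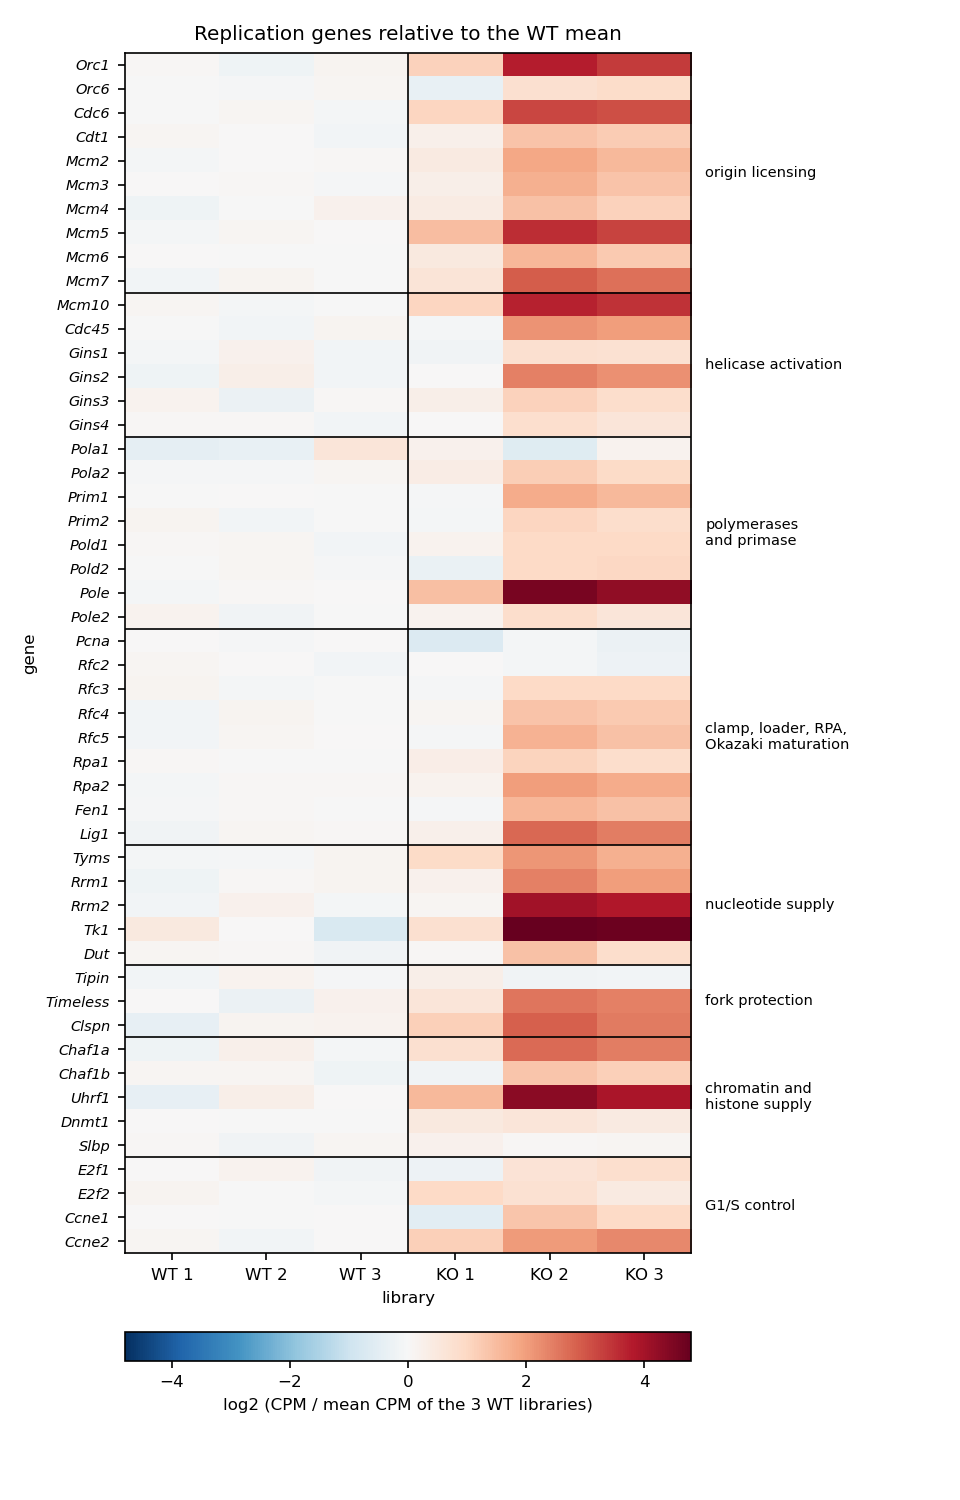
Each row is a replication gene, each column a library, and the colour is the log2 of its CPM over the mean CPM of the 3 WT libraries; lines separate the 8 roles. KO replicates 2 and 3 are above every WT library in 45 of 50 rows, KO replicate 1 in 30, and Rfc2, Tipin and Slbp are pale throughout.

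E2F factors bind short GC-rich sites near the start of many S-phase genes, so the promoters were searched for 4 spellings of that site, TTTGGCGC, TTTCGCGC, TTTCCCGC and TTTGCCGC, on either strand, where a match on one strand can overlap a match on the other. RefSeq windows (GRCm38.p6) of 250 bases before to 50 after the start matched 41 of the 50 genes by symbol, with 50 windows; Mcm4, Gins1, Gins2, Gins4, Prim2, Pole, Rfc2, Tipin and Ccne2 had none. The letters were in 17 of the 50 windows (34%), in 17 genes, against 3.99% of 11750 windows of tested genes and 2.26% of all 32851 windows. The stretches below belong to the genes with the smallest p whose window held a match and are shown because their levels differ most clearly by label; the matched letters are in capitals and bases are counted from the start site.
Dnmt1 (chr9:20952824-20952853, minus strand; bases -230 to -201): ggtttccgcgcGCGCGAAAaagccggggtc
Dnmt1 (chr9:20952574-20952603, minus strand; bases 21 to 50): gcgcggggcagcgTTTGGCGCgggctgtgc
Mcm5 (chr8:75109259-75109467, plus strand; bases -250 to -42): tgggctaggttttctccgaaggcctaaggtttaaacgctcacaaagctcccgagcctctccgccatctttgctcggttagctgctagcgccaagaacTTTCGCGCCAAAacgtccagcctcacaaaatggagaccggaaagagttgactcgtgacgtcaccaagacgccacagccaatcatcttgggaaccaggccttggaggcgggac
Uhrf1 (chr17:56304063-56304312, plus strand; bases -250 to -1): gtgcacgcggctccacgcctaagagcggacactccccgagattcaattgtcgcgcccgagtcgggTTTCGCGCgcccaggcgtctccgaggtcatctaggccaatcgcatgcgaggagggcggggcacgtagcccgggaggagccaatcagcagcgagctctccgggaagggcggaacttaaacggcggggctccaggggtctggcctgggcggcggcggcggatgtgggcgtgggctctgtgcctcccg
Clspn (chr4:126556990-126557019, plus strand; bases 11 to 40): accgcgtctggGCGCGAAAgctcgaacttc
All are written 5′ to 3′ on the gene's own strand. The Dnmt1 and Clspn stretches lie in annotated exons and are cut to 30 bases around the match, while the Mcm5 and Uhrf1 stretches lie in no exon of GENCODE M21. In Mcm5, 2 matches on opposite strands overlap and make 1 run of capitals, and the Mcm6 window also held an overlapping pair. Dnmt1 had 3 windows, of which 1 held matches, and Uhrf1 had 2, of which 1 did.

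Other letters were counted in the same windows, and no difference in share was tested. The CCAAT box (CCAAT) was in 58% of the replication gene windows and 38.1% of the windows of tested genes, the GC box (GGGCGG) in 68% and 62.4%, and the CHR element of mitotic promoters (TTTGAA or TTCGAA) in 18% and 14%. The PU.1 letters GAGGAAGT, searched in this spelling only, were in 0 of the 50 windows and in 3.36% of the windows of tested genes. With so low a share, 0 of 50 windows lies near it and does not show that these promoters lack PU.1 sites. Median GC content was 58.2% and 60.7%. A match describes letters in a window and says nothing of binding in these cells.

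Origin licensing factors (10 genes: Orc1, Orc6, Cdc6, Cdt1 and Mcm2 to Mcm7) had a median log2 difference of 1.31, and 9 of the 10 had every KO library above every WT library. None of them passed with all 6 libraries by edgeR, although 9 had an unadjusted p under 0.05, and all 10 rose without KO replicate 1, where the median was 1.64. Such counts, here and for each role below, are read beside the shares of all genes tested. Every KO library lay above every WT library for 18.4% of them. An unadjusted p under 0.05 on the higher side was reached by 15.0%, and 23.6% rose without KO replicate 1. A role holds few genes, so a count near these shares says little of it. Mcm5, a helicase ring subunit, was at 17.01, 71.1 and 57.8 CPM in the KO libraries and 5.64, 6.47 and 6.13 CPM in the WT libraries. All KO values were above all WT values and KO replicate 1 was the lowest KO value, which gave a log2 difference of 3.0 (SE 0.54, adjusted p = 0.0503), and 3.42 (adjusted p = 2.47e-06) without KO replicate 1. Mcm6, its ring partner and the most abundant licensing factor, was at 61.6, 134 and 105 CPM in the KO and 44.8, 43.96 and 43.4 CPM in the WT libraries. The groups did not overlap, with a log2 difference of 1.18 (SE 0.28, adjusted p = 0.0845) and 1.45 (adjusted p = 6.4e-05) without KO replicate 1. Mcm3 was at 36.99, 99.5 and 80.01 CPM in the KO and 31.1, 31.8 and 29.4 CPM in the WT libraries, a log2 difference of 1.23 (SE 0.36, adjusted p = 0.123), and 1.56 (adjusted p = 4.66e-05) without KO replicate 1.

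Among the loaders, Orc1, the origin recognition subunit whose amount follows the cell cycle, was at 0.716, 4.57 and 3.39 CPM in the KO and 0.349, 0.289 and 0.360 CPM in the WT libraries. Cdc6, which joins it at the origin, was at 2.64, 11.8 and 11 CPM in the KO and 1.28, 1.39 and 1.2 CPM in the WT libraries. In both genes KO replicates 2 and 3 were far above the other libraries and KO replicate 1 was the next highest. Orc6 was the licensing factor whose groups overlapped, since its value of 3.36 CPM in KO replicate 1 was below the lowest WT value of 4.1 CPM. The remaining Mcm2, Mcm4, Mcm7 and Cdt1 had log2 differences of 1.02 to 2.35.

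Genes that turn the loaded ring into a moving helicase (6 genes: Mcm10, Cdc45 and Gins1 to Gins4) had a median log2 difference of 1.21. Every KO library lay above every WT library for 2 of the 6, against 18.4% of all genes tested. An unadjusted p under 0.05 was reached by 4, against 15.0%. All 6 rose without KO replicate 1, against 23.6%, with a median of 1.54. Mcm10, which acts as the helicase is switched on, was at 2.86, 18.2 and 15.5 CPM in the KO and 1.51, 1.33 and 1.38 CPM in the WT libraries. Its groups did not overlap, with a log2 difference of 3.11 (SE 0.71, adjusted p = 0.0773), and 3.59 (adjusted p = 4.94e-06) without KO replicate 1. Gins2 was at 2.86, 15.2 and 13.1 CPM in the KO and 2.44, 3.47 and 2.58 CPM in the WT libraries, a log2 difference of 1.87 (SE 0.62, adjusted p = 0.156). KO replicate 1 lay inside the WT range, while the other KO libraries were higher than every WT library. Cdc45 had the same order, at 3.52, 16.99 and 15.1 CPM in the KO and 3.78, 3.47 and 4.14 CPM in the WT libraries. Gins4 was at 17.2, 29.8 and 25.5 CPM in the KO and 17.9, 17.6 and 15.6 CPM in the WT libraries, a log2 difference of 0.51 (SE 0.21, adjusted p = 0.231), and 0.72 (adjusted p = 0.00179) without KO replicate 1. The GINS complex held subunits with unlike differences, from 0.5 for Gins1 to 1.87 for Gins2 on the log2 scale.

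Polymerases and primase (8 genes) had a median log2 difference of 0.71; 4 had groups that did not overlap, 4 had an unadjusted p under 0.05, and 7 rose without KO replicate 1, where the median was 0.98. Pole, the catalytic subunit of polymerase ε, which copies the leading strand, was at 3.85, 33.5 and 27.1 CPM in the KO and 1.34, 1.5 and 1.44 CPM in the WT libraries. All 3 KO values were above the WT values, and KO replicate 1 was 2.7 times the WT mean where KO replicates 2 and 3 were 23.5 and 18.96 times, which gave a log2 difference of 3.91 (SE 0.83, adjusted p = 0.0668), and 4.42 (adjusted p = 2.05e-06) without KO replicate 1. Its partner Pole2 was at 3.74, 6.01 and 4.95 CPM in the KO and 3.72, 3.004 and 3.3 CPM in the WT libraries, a log2 difference of 0.55 (SE 0.24, adjusted p = 0.24). Pola2, a non-catalytic subunit of the polymerase that extends primers, was at 17.6, 30.7 and 25.6 CPM in the KO and 12.97, 13.2 and 14.5 CPM in the WT libraries, with a log2 difference of 0.86 (SE 0.22, adjusted p = 0.0905). Its groups did not overlap, and it rose without KO replicate 1, by 1.07 (adjusted p = 0.000297). Pold2, of the lagging-strand polymerase δ, was at 6.61, 15.8 and 16.1 CPM in the KO and 8.08, 8.61 and 7.75 CPM in the WT libraries, a log2 difference of 0.65 (SE 0.35, adjusted p = 0.313). Here KO replicate 1 was below every WT library. Pola1, the catalytic subunit beside Pola2, did not pass in either uncorrected fit, at 7.43, 4.26 and 7.25 CPM in the KO and 4.77, 5.03 and 9.55 CPM in the WT libraries, a log2 difference of -0.031 (95% interval -0.92 to 0.86). With the GC and length correction the Pola1 difference was 0.52 (adjusted p = 0.285), and 0.74 (adjusted p = 0.0283) without KO replicate 1.

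The clamp, its loader, the single-strand binding proteins and the enzymes that join Okazaki fragments (9 genes) had a median log2 difference of 1.003; 3 had KO above WT throughout, 1 below, 6 had an unadjusted p under 0.05, all higher, and 7 rose without KO replicate 1, where the median was 1.32. Pcna, the clamp itself, was the most abundant of the 50 genes and the only one of them with every KO library below every WT library. It was at 256, 379 and 337 CPM in the KO and 414, 390.0 and 414 CPM in the WT libraries, so that each KO library was below each WT library, with a log2 difference of -0.33 (SE 0.15, adjusted p = 0.265). Without KO replicate 1 the difference was -0.17 (adjusted p = 0.136), with a 95% interval of -0.36 to 0.028, and with the GC and length correction as well it was 0.025 (adjusted p = 0.768). On the authors' TPM scale, which divides by length and by a total over all transcripts, the groups overlapped, at 447, 604 and 545 in the KO and 592.5, 574 and 647 in the WT libraries. Rfc2, a loader subunit, was at 63.02, 58.3 and 53.6 CPM in the KO and 67.1, 64.3 and 57.5 CPM in the WT libraries, a log2 difference of -0.11 (SE 0.11, adjusted p = 0.534). Its KO and WT values were interleaved, although Rfc3, Rfc4 and Rfc5 of the same loader rose without KO replicate 1, by 0.97 to 1.56 on the log2 scale.

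Rpa1, which coats single-stranded DNA, was at 54.2, 91.7 and 79.2 CPM in the KO and 45.3, 43.4 and 42.95 CPM in the WT libraries. Its groups did not overlap, with a log2 difference of 0.77 (SE 0.2, adjusted p = 0.0926), and 0.98 (adjusted p = 0.000169) without KO replicate 1. Rpa2 had the larger log2 difference of 1.52 (adjusted p = 0.136). Lig1, the ligase that seals Okazaki fragments, was at 10.6, 60.6 and 48.2 CPM in the KO and 7.97, 9.59 and 9.13 CPM in the WT libraries, and Fen1, the nuclease that trims them, at 18.4, 57.7 and 50.6 and 18.2, 19.99 and 18.9 CPM. KO replicate 1 was just above the WT range for Lig1 and inside it for Fen1.

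Genes of deoxynucleotide supply (5 genes) had a median log2 difference of 1.81; all 5 had an unadjusted p under 0.05, 3 had groups that did not overlap, and all 5 rose without KO replicate 1, where the median was 2.24. Rrm2, the ribonucleotide reductase subunit made mainly in S phase, was at 4.07, 62.7 and 55.1 CPM in the KO and 3.49, 4.5 and 3.6 CPM in the WT libraries. KO replicate 1 lay inside the WT range and KO replicates 2 and 3 far above it, which gave a log2 difference of 3.39 (SE 0.97, adjusted p = 0.119), and 3.94 (adjusted p = 1.92e-06) without KO replicate 1. Rrm1, the partner subunit, was at 32.4, 149 and 112 CPM in the KO and 23.9, 29.3 and 30.3 CPM in the WT libraries, a log2 difference of 1.81 (SE 0.54, adjusted p = 0.13). Tyms, which makes thymidylate, was at 4.95, 11.4 and 8.71 CPM in the KO and 2.5, 2.54 and 2.88 CPM in the WT libraries, a log2 difference of 1.66 (SE 0.33, adjusted p = 0.0581). Its groups did not overlap, but its deposited counts were not whole numbers in all 6 libraries, so reads may be shared with another locus. Tk1, the thymidine salvage kinase, had the largest log2 difference of the 50, at 2.04, 35.4 and 31.2 CPM in the KO and 1.69, 1.21 and 0.721 CPM in the WT libraries, a log2 difference of 4.23 (SE 1.09, adjusted p = 0.0983), and 4.79 (adjusted p = 6.26e-06) without KO replicate 1. KO replicate 1 was hardly above WT replicate 1 while the other KO libraries were far above both.

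Of the 3 fork protection genes, Clspn and Timeless rose without KO replicate 1 and Tipin did not pass in either uncorrected fit. Clspn, the adaptor that relays stalled forks to the checkpoint kinase, was at 4.9, 16.2 and 12.2 CPM in the KO and 1.69, 2.43 and 2.46 CPM in the WT libraries. The groups did not overlap, with a log2 difference of 2.34 (SE 0.48, adjusted p = 0.0613), and 2.71 (adjusted p = 6.06e-05) without KO replicate 1. Timeless was at 3.47, 13.4 and 12.1 CPM in the KO and 2.33, 1.91 and 2.64 CPM in the WT libraries, a log2 difference of 2.08 (SE 0.53, adjusted p = 0.0978), and 2.49 (adjusted p = 3.75e-05) without KO replicate 1. Tipin, whose protein binds Timeless at the fork, was at 8.42, 6.16 and 6.25 CPM in the KO and 6.34, 7.68 and 6.61 CPM in the WT libraries, a log2 difference of 0.014 (95% interval -0.46 to 0.48), and -0.13 (adjusted p = 0.513) without KO replicate 1. The GC and length correction moved the Tipin difference to 0.66 (adjusted p = 0.121), and to 0.84 (adjusted p = 0.00302) without KO replicate 1. For Tipin KO replicate 1 was the highest library and KO replicate 2 the lowest.

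The chromatin and histone supply group (5 genes) held the gene that rose with all 6 libraries. Dnmt1, which copies DNA methylation onto the new strand, was at 183.5, 199 and 179 CPM in the KO and 136, 133 and 131 CPM in the WT libraries. The KO libraries lay together above the WT libraries, and KO replicate 1 did not stand apart, which gave a log2 difference of 0.49 (SE 0.078, adjusted p = 0.0387), and 0.52 (adjusted p = 0.00127) without KO replicate 1. The call did not hold when other libraries were left out: leaving out KO replicate 2 or 3 gave an adjusted p of 0.163 each, and leaving out WT replicate 1, 2 or 3 gave 0.173, 0.247 and 0.137. It was also lost with upper-quartile factors (adjusted p = 0.0567), with the replicate number as a block (adjusted p = 0.183) and with a correction for GC content and length (log2 difference 0.31, adjusted p = 0.0786). Uhrf1, which brings Dnmt1 to replicated DNA, was at 9.36, 64.7 and 48.1 CPM in the KO and 2.44, 3.87 and 3.24 CPM in the WT libraries. KO replicate 1 was 2.94 times the WT mean, its largest ratio among the 50, and the other KO libraries were 20.3 and 15.1 times, which gave a log2 difference of 3.67 (SE 0.75, adjusted p = 0.0613), and 4.16 (adjusted p = 7.04e-06) without KO replicate 1. Chaf1a and Chaf1b, subunits of the histone chaperone that works behind the fork, had log2 differences of 2.19 and 0.9, and both rose without KO replicate 1. Slbp, which binds the stem loop of histone mRNA, was at 37.4, 34.04 and 34.9 CPM in the KO and 33.96, 29.2 and 34.6 CPM in the WT libraries, a log2 difference of 0.12 (SE 0.11, adjusted p = 0.492). Slbp did not pass in either uncorrected fit, and rose by 0.36 (adjusted p = 0.00719) with the GC and length correction and without KO replicate 1.

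Regulators of entry into S phase (4 genes) had a median log2 difference of 0.76, 2 had an unadjusted p under 0.05 and groups that did not overlap, and all 4 rose without KO replicate 1, where the median was 0.96. E2f2, an activating E2F, was highest in KO replicate 1, at 64.6, 54.8 and 45.2 CPM in the KO and 36.05, 33.1 and 30.9 CPM in the WT libraries. Its groups did not overlap, with a log2 difference of 0.72 (SE 0.15, adjusted p = 0.0638), and 0.6 (adjusted p = 0.00425) without KO replicate 1. E2f1, the related factor, was at 24.9, 46.98 and 51.2 CPM in the KO and 29.8, 32.9 and 26.2 CPM in the WT libraries, a log2 difference of 0.47 (SE 0.28, adjusted p = 0.359). KO replicate 1 was below every WT library for E2f1 and above every WT library for E2f2. Ccne2, a cyclin E, was at 1.54, 2.93 and 3.49 CPM in the KO and 0.756, 0.635 and 0.721 CPM in the WT libraries, a log2 difference of 1.91 (SE 0.38, adjusted p = 0.0561), and 2.19 (adjusted p = 0.000318) without KO replicate 1. The other cyclin E gene, Ccne1, was at 4.18, 14.8 and 11.5 CPM in the KO and 5.99, 5.72 and 5.89 CPM in the WT libraries. In KO replicate 1 the pair parted, with Ccne2 above the WT range and Ccne1 below it.

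**Figure D2:**
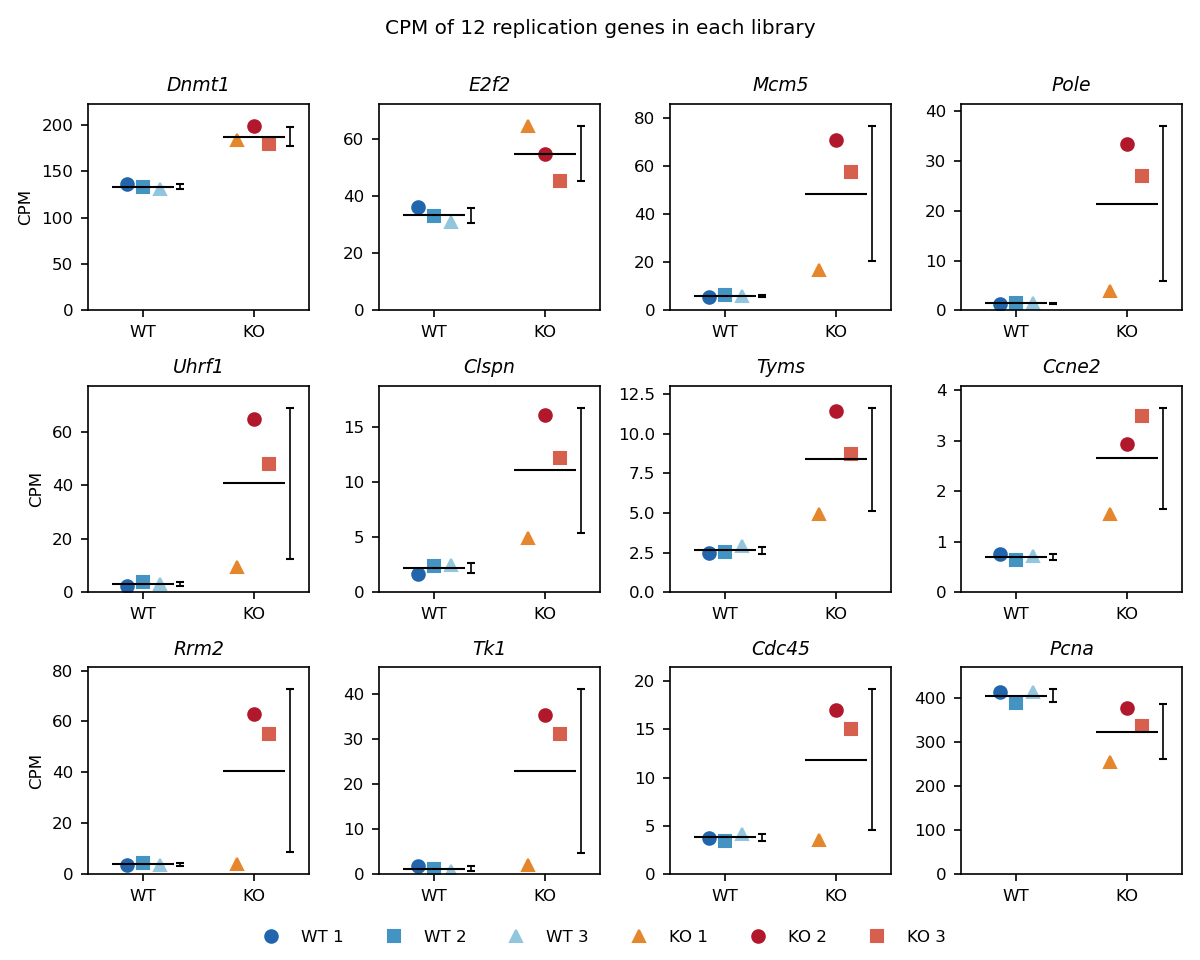
CPM of 12 replication genes in each library, with a line at the group mean and a bar of 1 SD beside it (n = 3 per group). Dnmt1 shows 3 KO values close together, Mcm5, Pole and Uhrf1 show KO replicate 1 between the WT and the other KO values, Rrm2 and Cdc45 show it among the WT values, and Pcna shows all KO values below the WT values.

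KO replicate 1 was not uniformly at the WT level. It reached at least 1.5 times the WT mean for 14 of the 50 genes, against 9.84% of all genes tested, and at least 2 times for 8, against 5.02%. Those 8 were Uhrf1 (2.94 times), Mcm5 (2.8), Pole (2.7), Clspn (2.24), Ccne2 (2.19), Orc1 (2.15), Cdc6 (2.05) and Mcm10 (2.03). The summed level of the 50 genes was 1141, 2307 and 1980 CPM in KO replicates 1, 2 and 3 and 1123, 1104 and 1108 CPM in the WT libraries. Pcna alone made up much of the sum. Without it the sums were 884.7, 1929 and 1643 CPM in the KO libraries and 708.8, 714.3 and 693.3 CPM in the WT libraries, so that KO replicate 1 then lay above the WT libraries.

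**Figure D3:**
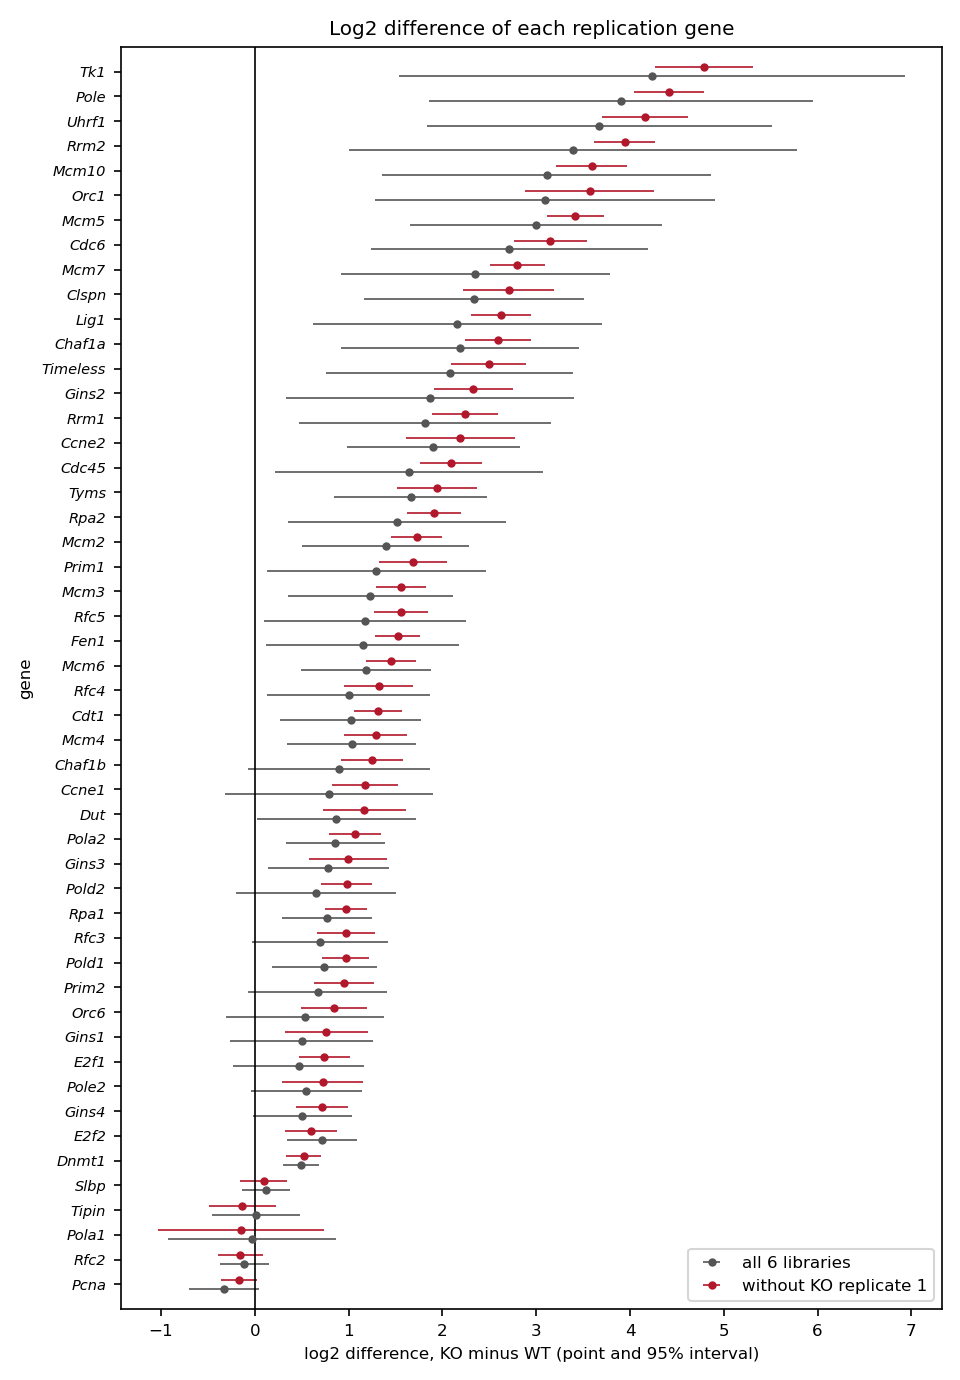
Log2 difference (KO minus WT) of each replication gene with its 95% interval from edgeR, with all 6 libraries in grey and without KO replicate 1 in red, in order of the second. The intervals without KO replicate 1 are above 0 for 45 genes and reach 0 or below for Slbp, Tipin, Pola1, Rfc2 and Pcna.

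Levels between genes were compared on the authors' TPM scale, which divides by transcript length. In the WT libraries 36 of the 50 genes had a mean under 10 TPM and 7 were over 20 TPM; in the KO libraries 16 were under 10 and 23 were over 20. The most abundant in WT was Pcna at a mean of 604.4 TPM, with 532.2 TPM in KO. The 7 genes under 1 TPM in WT (Orc1, Cdc6, Mcm10, Pole, Timeless, Clspn and Ccne2) had log2 differences of 1.91 to 3.91. The 7 genes over 20 TPM in WT (Mcm6, Gins4, Pcna, Rfc2, Rpa1, Dnmt1 and Slbp) had log2 differences of -0.33 to 1.18. Level and difference share the WT libraries here, so this is a description.

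Transcript ratios between subunits of a complex are given for 6 pairs chosen after their values were seen. Ribonucleotide reductase had 3.52, 3.35 and 4.34 times as much Rrm1 as Rrm2 in the WT libraries, 4.1 times in KO replicate 1, and 1.22 and 1.04 times in KO replicates 2 and 3. The ratio in KO replicate 1 was thus within the WT range. Polymerase ε had 13.2, 10.1 and 10.9 times as much Pole2 as Pole in the WT libraries and 4.58, 0.895 and 0.875 times in the KO libraries. Chaf1b over Chaf1a was 2.86, 2.09 and 2.15 in the WT libraries and 1.23, 0.906 and 0.949 in the KO libraries. In both of these pairs KO replicate 1 lay between the WT libraries and the other KO libraries. Mcm6 over Mcm5 was 9.22, 7.85 and 8.2 in the WT libraries and 4.2, 2.19 and 2.12 in the KO libraries. The 6 ring subunits, which sit in equal number in the helicase, spanned 7.85 to 9.22 times from the scarcest to the most abundant in the WT libraries and 4.23 to 4.5 times in the KO libraries. Not every complex narrowed to this extent. The 4 GINS subunits spanned 6.97 to 10 times in the WT libraries and 6.61 to 6.67 times in the KO libraries. The 4 subunits of polymerase α and primase spanned 6.42, 6.2 and 3.6 times in the WT libraries and 5.57, 16.9 and 8.31 times in the KO libraries, widest in KO replicate 2. These are transcript ratios and not protein ratios.

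**Figure D4:**
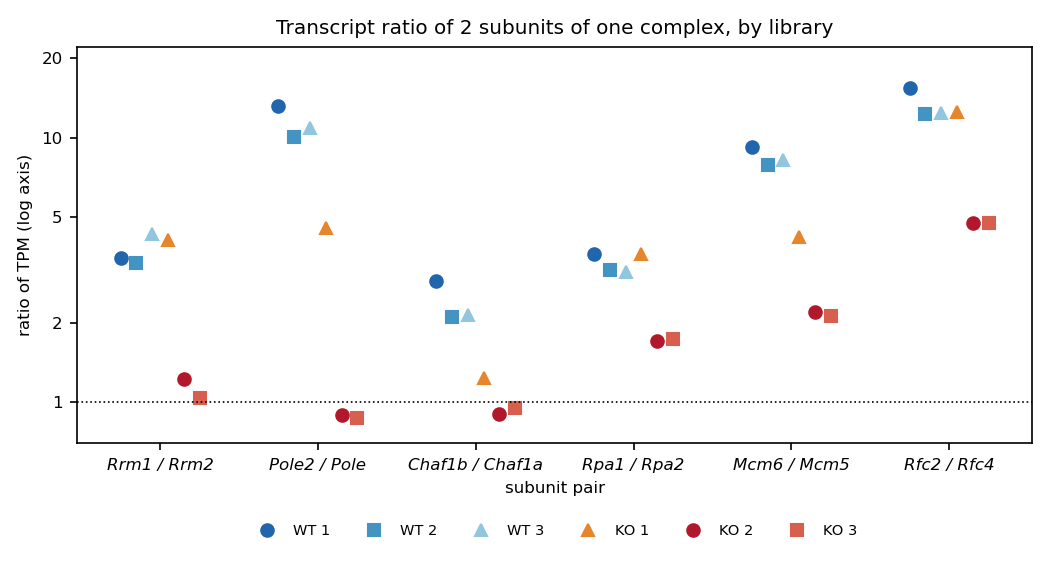
Ratio of the TPM of 2 subunits of the same complex in each library, on a log axis with a dotted line at 1. KO replicates 2 and 3 are the lowest for all 6 pairs, and KO replicate 1 is among the WT values for Rrm1 over Rrm2, Rpa1 over Rpa2 and Rfc2 over Rfc4.

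Further genes of the same pathways were taken from 5 lists, whose counts without KO replicate 1 are read beside the 23.6% of all genes that rose and the 26.0% that fell in that fit. With all 6 libraries, 1709 of the 11424 genes tested had an unadjusted p under 0.05 on the higher and 887 on the lower side. Higher shares were 54.5% of the other replication factors, 50% of the E2F list, 46.7% of the checkpoint list, 33.3% of the nucleotide list and 46.2% of the chromatin list, and lower shares were 18.2%, 15.0%, 26.7%, 16.7% and 23.1%, so the falls were near or under the share of all genes. Of 33 other replication factors, 32 were tested with all 6 libraries, 0 passed, and 9 had an unadjusted p under 0.05, all higher; without KO replicate 1, 18 rose and 6 fell, and the 6 were Orc2, Orc3, Orc4, Rfc1, Top1 and Supt16. With the GC and length correction Orc3 no longer differed in that fit, with a log2 difference of -0.063 (adjusted p = 0.595) in place of -1.24, and Orc4 fell by 0.68 in place of 1.93. Ticrr, which brings Cdc45 to the origin, had the smallest p of the list, at 1.71, 11.8 and 9.85 CPM in the KO and 0.698, 0.462 and 0.541 CPM in the WT libraries, a log2 difference of 3.77 (SE 0.79, adjusted p = 0.0654). All KO values were above the WT values. Its counts were only 12, 8 and 9 in the WT libraries, beside 31, 230 and 189 in the KO libraries. Ticrr thus passed the filter on low counts through the KO libraries, and its difference is a description. Orc2, Orc3 and Orc4 are the constant part of the complex that Orc1 joins.

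Of 20 other E2F, pocket protein and G1/S genes, 0 passed with all 6 libraries, 7 had an unadjusted p under 0.05 on the higher and 1 on the lower side, and without KO replicate 1, 10 rose and 3 fell (Rb1, Lin9 and Lin54). With the GC and length correction Lin9 and Lin54 no longer passed in that fit, with log2 differences of 0.0069 (adjusted p = 0.9754) and -0.022 (adjusted p = 0.907). Ccna2, the cyclin of S phase and G2, was at 7.49, 59.5 and 47.02 CPM in the KO and 1.92, 3.12 and 2.64 CPM in the WT libraries, a log2 difference of 3.89 (SE 0.81, adjusted p = 0.0638). Of 15 S-phase checkpoint genes, 0 passed, 6 had an unadjusted p under 0.05, all higher, and without KO replicate 1, 7 rose and 4 fell (Atr, Rad9a, Rad17 and Etaa1). Exo1, a nuclease of mismatch repair and of break ends, was at 2.15, 8.01 and 6.72 CPM in the KO and 0.233, 0.866 and 0.721 CPM in the WT libraries, a log2 difference of 3.2 (SE 0.68, adjusted p = 0.0667). Both genes had KO libraries above the WT libraries throughout, with KO replicate 1 the lowest of the KO libraries. Exo1 was under 1 CPM in every WT library, so its difference rests on few WT reads. Of 18 other nucleotide supply genes, 0 passed, 5 had an unadjusted p under 0.05 on the higher and 1 on the lower side, and without KO replicate 1, 6 rose and 3 fell (Rrm2b, Nme1 and Samhd1).

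Of 13 other chromatin replication genes, 1 rose with all 6 libraries, and without KO replicate 1, 6 rose and 3 fell (Asf1a, Kmt5a and Kmt5b). With the GC and length correction Asf1a turned, with a log2 difference of 0.70 (adjusted p = 0.00389) in place of -0.50. The gene that rose with all 6 libraries was Lmnb1, a nuclear lamina protein, at 9.03, 37.7 and 29.4 CPM in the KO and 3.08, 3.18 and 3.12 CPM in the WT libraries, a log2 difference of 3.02 (SE 0.54, adjusted p = 0.0499). The groups did not overlap, but the adjusted p sat at the threshold and the call was lost with RLE factors or limma-voom. Among markers of mitosis, 4 of 15 rose with all 6 libraries (Mki67, Cenpf, Top2a and Kif11), against 2.26% of all genes tested. All 15 rose without KO replicate 1, against 23.6%. Their summed level was 145.3, 540.8 and 569.6 CPM in the KO and 60.9, 65.9 and 67.5 CPM in the WT libraries. The median mitosis marker stood at 3.03, 9.17 and 9.93 times the WT mean in KO replicates 1, 2 and 3, where the median replication gene stood at 1.17, 2.84 and 2.38 times. Mki67, 1 of these 15 and picked after its values were seen, was at 45.6, 41.1 and 102 CPM in the KO and 9.71, 12.2 and 14.5 CPM in the WT libraries. KO replicate 1 was above KO replicate 2 for Mki67, unlike in the summed level of the 15. The difference between the lists was not tested.

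Counting puts limits on single genes. The RefSeq ranges of 14 of the 50 genes overlap another protein-coding gene of the table, among them Mcm7 with Ap4m1, Rfc4 with Eif4a2 and Tk1 with Afmid, and whether counting used strand is not stated in what was at hand. Pold1 had counts that were not whole in 3 libraries, as Tyms had in all 6.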

How the data were processed

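Polyadenylated RNA was captured, fragmented and sequenced on an Illumina instrument, per the labels' protocols, and the submitters' processing notes name fastp 0.18.0, a read filter; no aligner, counter or strand setting is named in the sources at hand. The authors' deposited table gives FPKM, which were not used, and estimated counts, of which 4.82 to 5.49% per library were not whole, beside TPM, and the authors' deposited log2 fold changes and q-values. Its coordinates match GRCm38, while the processing notes name GRCm39, so no position from the table is printed and the promoter positions are those of RefSeq.

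Counts were rounded, scaled by TMM, filtered with filterByExpr (minimum count 10) and tested with edgeR 4.0.16 (robust quasi-likelihood F test, R 4.3.3), KO against WT, 3 libraries each, in a model of label alone, with p-values adjusted by Benjamini-Hochberg across the 11424 genes tested; genes were called at an adjusted p under 0.05. CPM use the TMM-scaled totals. Alternatives tried were DESeq2 1.42.0, limma 3.58.1 (voom), scaling by RLE or upper quartile, a filter at a mean CPM of 10 or none, a replicate block, each library left out and an adjusted p under 0.01; a per-library smooth correction for GC content and length (mgcv 1.9.3, 14967 genes of GENCODE M21) was chosen after seeing the data. The fit was also run on simulated counts with less spread between libraries than these data and no library apart. That run therefore does not show how the fit behaves on these libraries. Genes named with the value of each library were Spi1, every called gene of the 50, in each role the gene with the smallest p and the 2 with the highest mean TPM, and from each further list the called genes or the one with the smallest p (for the nucleotide list it is not reported here); those added for contrast (Orc1, Orc6, Cdc6, Cdc45, Pole2, Pola1, Lig1, Fen1, Tk1, Uhrf1, Ccne1, Mki67) were picked after their values were seen. The 50 genes and the lists were chosen with earlier results of these data known.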

Additional observations from a re-analysis of the deposited data

How the results depend on the processing

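The median log2 difference of the 50 genes stayed within 0.80 to 1.39 over all alternatives, while the number called depended on them. Called higher were 2 genes with upper-quartile factors (Mcm5 and E2f2), 28 with DESeq2, 4 with the GC and length correction (Mcm5, Tyms, Clspn and Uhrf1) and 0 at an adjusted p under 0.01. That correction without KO replicate 1 called 48 higher and 1 lower (Rfc2), where it called 2970 of all 11475 genes tested higher and 3161 lower. Leaving out each library in turn gave 0 to 45, with 45 without KO replicate 1 and 0 without any other, where 22 to 25 genes had an unadjusted p under 0.05 and were higher. With the replicate block 0 of the 50 and 0 of all genes passed by edgeR, with 28 of the 50 at an unadjusted p under 0.05. Deviations from the group mean correlated at -0.162, 0.246 and -0.271 between same-numbered libraries. With 3 libraries a group and KO replicate 1 apart, these correlations cannot show whether the numbers pair libraries. Some differences near 0 changed sign without passing. Tipin was -0.002 with limma-voom and -0.133 to 0.0786 with each library left out. It was below 0 without KO replicate 1, at -0.0669 without WT replicate 1 and at -0.0195 without WT replicate 3. Pcna was 0.025 with the correction without KO replicate 1. In that last fit Pola1 and Tipin changed sign and passed by edgeR. Pola1 was 0.74 (adjusted p = 0.0283) in place of -0.15 uncorrected, and Tipin 0.84 (adjusted p = 0.00302) in place of -0.13. Limma-voom and RLE factors kept the count at 1, and a mean of at least 10 CPM left 29 of the 50 in the test.

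Over all genes 379 were called, 68.1% of them higher. The count was 1344 of 12427 with DESeq2, 229 with a mean of at least 10 CPM, 656 (52.6% higher) with the GC and length correction, 6131 of 11475 with it and without KO replicate 1, 15 at an adjusted p under 0.01, and 5 to 5793 with each library left out (5793 of 11677 without KO replicate 1, 47.7% of them higher). The counts of the lists are read beside these. For the other replication factors the count of 0 became 4 with DESeq2, 25 with the correction without KO replicate 1 and 0 to 24 with a library left out; for the E2F list 3, 13 and 0 to 13, and 1 with the correction alone; for the checkpoint list 5, 13 and 0 to 11; for the nucleotide list 4, 9 and 0 to 9. For the other chromatin genes the count of 1 became 0 with RLE factors, with limma-voom, with a mean CPM filter of 10 or none, with the replicate block and with an adjusted p under 0.01, 2 with upper-quartile factors and with the GC and length correction, 4 with DESeq2, 12 with the correction without KO replicate 1 and 0 to 9 with a library left out. The causes were not tested. With 3 libraries a group, 1 of them apart, and genes such as Orc1 at under 1 CPM in WT, a difference that did not pass is not shown to be absent.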

Other observations

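Histone genes and histone variants, which no list above held, were also read in the same libraries. Of 51 clustered histone genes listed, 44 were under 1 CPM in every library and 6 were tested, with 0 called by edgeR and 1 at an unadjusted p under 0.05. Without KO replicate 1, 7 were tested, 2 fell and 0 rose, where 26.0% of all genes tested fell and 23.6% rose. The summed level of the 51 was 60.3, 70.2 and 83.3 CPM in the KO libraries and 97.6, 107 and 90.5 CPM in the WT libraries. Most mRNAs of clustered histone genes carry no poly(A) tail, and the libraries were made by mRNA capture. Whether the reads counted came from transcripts with a tail, and why the sums differed, was not tested. In the polyadenylated variants H2afz and H2afv, KO replicates 2 and 3 were above every WT library and KO replicate 1 was not. H2afz was at 197, 362 and 327 CPM in the KO and 207, 204 and 189 CPM in the WT libraries, with a log2 difference of 0.56 (adjusted p = 0.223), and 0.80 without KO replicate 1 (adjusted p = 0.000223). H2afv was at 9.69, 33.8 and 32.4 CPM in the KO and 10.8, 13.4 and 11.6 CPM in the WT libraries, with a log2 difference of 1.09 (adjusted p = 0.242), and 1.49 without KO replicate 1 (adjusted p = 7.08e-05). These genes were chosen after the data were seen.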
